A study of Mus musculus with 10 samples.

Results

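The immediate early genes examined here were 10 listed members of the Egr, Fos and Jun families together with Ier2, of 48795 genes in the count table. They were chosen by name (Egr1, Egr2, Egr3, Fos, Fosb, Fosl1, Fosl2, Jun, Junb and Ier2) and found by their Ensembl identifiers, and all 10 were in the table. RNA-seq had been done on cultures of adult NSCs from the subependymal zone of 10-week-old mice, either WT or labelled Cdkn1b (p27KO), a line the study kept on a C57BL/6J background. Proliferating neurospheres (PRO, 3 WT and 2 p27KO libraries) were floating spheres of dividing cells harvested after 3 days in vitro (DIV) with EGF at 20 ng/ml and FGF at 10 ng/ml. Cells at 2 + 1 DIV (DIFF, 3 WT and 2 p27KO libraries) had spent 2 days attached to Matrigel with FGF and then 24 h without mitogens and with 2% FBS. Mitogens, attachment and serum therefore changed together between the stages, and their parts in a stage change cannot be told apart. The replicates are described as biological, without a statement that they came from separate mice, so that p-values measure the spread between these libraries.

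Immediate early genes are transcribed within minutes of a stimulus such as a growth factor, without new protein synthesis, mostly through ERK signalling to the serum response factor SRF with its ternary complex partners, and through CREB. FOS and JUN family proteins pair by their leucine zippers to form the dimeric factor AP-1, and EGR proteins are zinc-finger factors that bind GC-rich sites. Their transcripts are short-lived, so that the level at one time reflects recent signalling, and EGF and FGF are classical inducers of both families.

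The libraries held 19190068 to 25291674 counts. The summed level of 6 neural stem and progenitor markers was 6857 to 8517 CPM (counts scaled to a common library total) in all 10 libraries, but its members went different ways between the stages. Nes was at 1732 ± 254 CPM in WT PRO and 195 ± 40.9 CPM in WT DIFF (SD, n = 3), and Slc1a3 at 768 ± 102 and 2386 ± 249 CPM, with like values in p27KO. Microglial markers (6 genes) summed to at most 0.58 CPM and mature neuron markers (4 genes) to 8.59 to 28.9 CPM. Endothelial markers (4 genes) summed to 1.65 to 2.49 CPM in PRO and 4.27 to 10.6 CPM in DIFF libraries, with Cldn5 and Cdh5 at 0 in every library, and pericyte and fibroblast markers (5 genes) to 0.661 to 1.51 CPM in PRO and 3.69 to 10.7 CPM in DIFF libraries. Both sums were thus higher in every DIFF library than in every PRO library, and their part in the stage changes was not tested. The count of the targeted gene did not separate the genotypes in neurospheres: Cdkn1b was at 107 CPM ± 5.12 (SD, n = 3) in WT PRO and at 102 CPM ± 16.3 (SD, n = 2) in p27KO PRO, against 207 CPM ± 1.68 and 139 CPM ± 2.17 in DIFF. A free-text note of the 4 p27KO samples reads WT, while their titles and genotype fields read p27KO, and p27KO below stands for the libraries labelled so. Xist was at 2258 to 3595 CPM in these 4 libraries and at no more than 2.57 CPM in the 6 WT libraries, so that genotype and the sex of the cells cannot be told apart.

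The start regions of 4 of the genes are shown with the letters of them that match sites of SRF and of the CREB and ATF family, through which growth factors are known to reach immediate early genes. RefSeq promoter windows on GRCm38.p6 (250 bases before to 50 bases after a start) were at hand for 6 of the 10 genes, and the 150 bases before the start are given for Fos (chr12:85473740-85473889, plus strand), Egr2 (chr10:67537719-67537868, plus strand, the third of its 5 windows), Jun (chr4:95052223-95052372, minus strand) and Junb (chr8:84978749-84978898, minus strand). Capitals mark matches, on either strand, to the SRF site known as the CArG box (in Egr2), to TGACG, which is the first part of the CREB and ATF site TGACGTCA (in Fos, Egr2 and Junb), and to TGACATCA (in Jun).
Fos: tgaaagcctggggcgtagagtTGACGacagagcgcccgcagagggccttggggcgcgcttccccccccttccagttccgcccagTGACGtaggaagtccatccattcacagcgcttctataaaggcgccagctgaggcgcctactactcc
Egr2: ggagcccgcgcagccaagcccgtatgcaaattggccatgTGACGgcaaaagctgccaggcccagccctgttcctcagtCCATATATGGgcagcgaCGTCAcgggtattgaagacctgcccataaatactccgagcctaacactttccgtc
Jun: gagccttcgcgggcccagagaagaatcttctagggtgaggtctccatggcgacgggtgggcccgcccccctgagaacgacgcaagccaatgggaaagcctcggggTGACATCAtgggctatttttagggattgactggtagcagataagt
Junb: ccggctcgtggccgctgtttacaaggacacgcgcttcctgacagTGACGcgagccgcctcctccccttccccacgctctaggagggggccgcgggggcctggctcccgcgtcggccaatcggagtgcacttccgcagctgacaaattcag
The CArG box began 72 bases before the Egr2 start shown and lay in the third, the fourth and the fifth of the Egr2 windows, which overlap, while the second window held another match of other letters. A CArG box was found in 1.63% of the 32851 promoter windows of the reference. Sequence beyond the windows was not searched, so that the lack of a CArG box in Fos, Jun and Junb holds for their windows only. TGACG began 129 and 66 bases before the Fos start, 111 bases before that of Egr2 (and on the other strand 55 bases before it) and 106 bases before that of Junb. It also began 60 bases before the start of Fosb, whose window is not printed, and 20.8% of all windows held it. TGACATCA, an AP-1 and ATF type site, began 45 bases before the Jun start and was in 3.62% of all windows. The full TGACGTCA (1.79% of all windows) and the AP-1 site TGANTCA (7.81%) were in none of the windows of the 6 genes. The EGR site GCGNGGGCG (5.55%) was in those of Fosb and Fosl2. TGACG and TGACATCA were added to the search after the windows had been seen, a match is only a match of letters, and TGACG also matches every TGACGTCA.

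In neurospheres the 10 genes spanned a wide range of levels, and Jun and Egr1 stood above the rest. On the scale of CPM per kilobase of exon, which allows genes to be compared, Jun was at 57.8 ± 7.28 in WT PRO (SD, n = 3), Egr1 at 29.5 ± 5.15, Ier2 at 9.13 ± 2.09 and Fos at 8.75 ± 0.562. The next genes in this order were Fosl1 (1.83 ± 0.361), Fosl2 (1.53 ± 0.316), Junb (1.40 ± 0.394) and Egr2 (1.33 ± 0.159), followed by Egr3 (0.292 ± 0.160) and Fosb (0.105 ± 0.0404). Ier2 and Fos did not differ beyond their spread, nor did the 4 genes from Fosl1 to Egr2. In p27KO PRO the 5 highest genes came in the same order, from Jun at 58.3 ± 10.1 (SD, n = 2) to Fosl1 at 1.95 ± 0.0253 CPM per kb.

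The order was different at 2 + 1 DIV. In WT DIFF, Jun was still the highest, at 5.94 ± 0.505 CPM per kb (SD, n = 3), but Ier2 (2.96 ± 0.959) and Fos (2.94 ± 0.555) were above Egr1 (1.14 ± 0.345). Egr1 was within the spread of Fosl1 (0.923 ± 0.167), and Fosl2 was at 0.566 ± 0.143 and Junb at 0.414 ± 0.142 CPM per kb. Fosb, the lowest of the 10 in neurospheres, was at 0.211 ± 0.0327 and thus above Egr2 (0.0577 ± 0.0283) and Egr3 (0.0131 ± 0.00510). In p27KO DIFF, Egr1 was likewise the fourth and Fosb the eighth of the 10 genes.

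**Figure D1:**
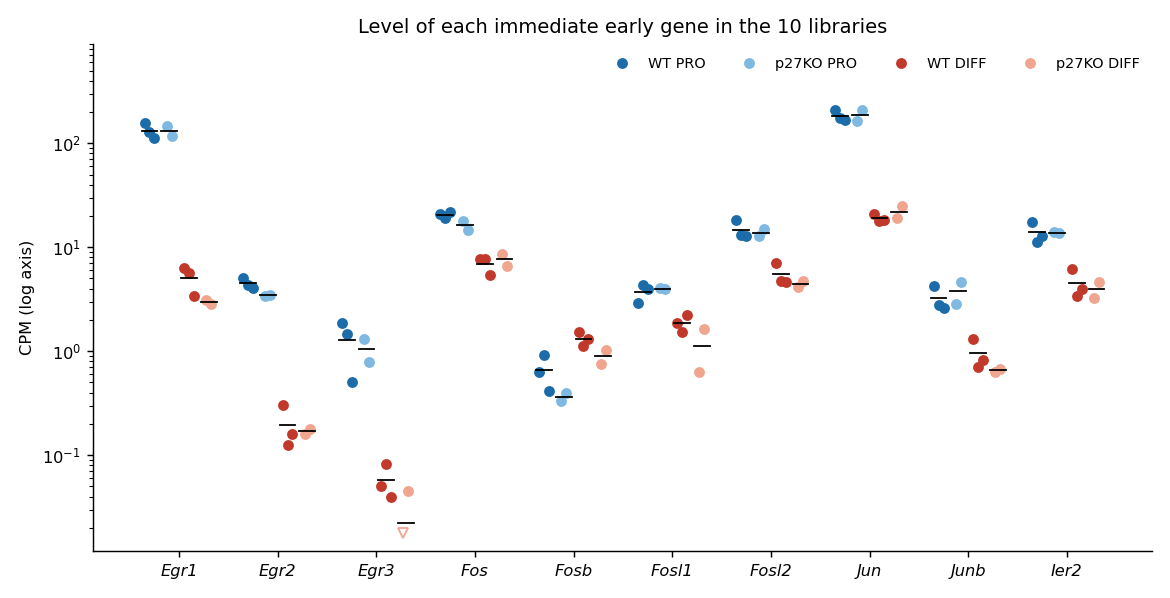
Level of each gene in CPM (vertical log axis) in WT and p27KO neurospheres (PRO) and cells at 2 + 1 DIV (DIFF). Each point is 1 library, short black lines are group means, and the open triangle marks 1 p27KO DIFF library with 0 counts of Egr3. For 9 genes all DIFF points of a genotype lie below its PRO points, and for Fosb above them.

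The first comparison asked how the genes changed in WT cells from neurospheres to 2 + 1 DIV. After genes with under 1 CPM in at least 4 of the 10 libraries had been discarded, 12859 genes were tested, among them 6 of the 10 (Egr1, Fos, Fosl1, Fosl2, Jun and Ier2). All 6 were DOWN and none UP, where 33.9% of all genes tested were DOWN and 33.5% UP (adjusted p under 0.05). Egr2, Egr3, Fosb and Junb failed the filter, and their values come from a fit of all 28840 genes with counts. In that fit 9 of the 10 genes were DOWN and none UP, against 17.3% of its genes DOWN and 18% UP. The 3 DIFF libraries lay below the 3 PRO libraries without overlap for those 9 genes (18.7% of all genes with counts) and above them for Fosb (25.8%).

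The Egr genes had the largest fitted falls. Egr1, which couples growth factor signals to transcription, was at 158, 127 and 112 CPM in WT PRO and at 6.31, 5.64 and 3.36 CPM in WT DIFF. Every DIFF library was far below every PRO library, and the mean was 25.9 times lower. As these are bulk cultures, fewer cells with a transcript and less of it per cell cannot be told apart for any of these genes. The fitted log2 fold change was -4.71 ± 0.23 (SE), with an adjusted p of 2.43e-07 from the quasi-likelihood test of edgeR after Benjamini-Hochberg adjustment, which was used for all adjusted p-values below unless another is named.

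Egr2, known in Schwann cells and hindbrain as Krox20, went from 5.11, 4.35 and 4.06 CPM to 0.305, 0.124 and 0.158 CPM. The groups did not overlap, and the fall rested on 13 counts over the 3 DIFF libraries against 295 in PRO. The PRO level was 23.8 times the DIFF level with a 95% interval of 13.7 to 45.2, which is exact but covers counting error only, and the fitted log2 fold change was -4.61 ± 0.39 (SE, adjusted p = 6.77e-10).

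Egr3, a close relative of Egr2 that is itself a target of other EGR and NFAT factors, had 36, 37 and 11 counts in WT PRO and 1, 2 and 1 counts in WT DIFF. PRO library 3 was well below the others, yet all PRO libraries were above all DIFF libraries. The ratio of the levels was 22.0, with a 95% counting interval of 8.28 to 82.6, and the fit gave an adjusted p of 8.48e-06.

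Of the Fos family, 3 genes fell and Fosb did not. Fos, the partner that brings a transactivation domain to AP-1, was at 20.9, 19.1 and 21.7 CPM in WT PRO and 7.68, 7.67 and 5.42 CPM in WT DIFF. The groups were well apart, by a factor of 2.97 in the means, and the log2 fold change was -1.58 ± 0.17 (SE, adjusted p = 2.75e-05).

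Fosl2 (Fra-2), a Fos relative that lacks the strong transactivation domain, was at 18.3, 13.2 and 12.8 CPM in PRO and 7.07, 4.77 and 4.59 CPM in DIFF. In both stages library 1 was the highest, and the groups did not overlap. The log2 fold change was -1.45 ± 0.21 (SE, adjusted p = 0.000171).

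Fosl1 (Fra-1), the other such relative, was at 2.92, 4.35 and 3.92 CPM in PRO and 1.88, 1.53 and 2.21 CPM in DIFF. This was the narrowest gap among the genes that fell. The log2 fold change was -1.0 ± 0.30 (SE, adjusted p = 0.0145), and it did not pass without PRO library 2 (-0.88, adjusted p = 0.0522) or without DIFF library 2 (-0.89, adjusted p = 0.0517). Fosl1 overlaps Ccdc85b on the other strand, which also fell from 10.2 ± 2.23 to 3.18 ± 0.825 CPM (SD, n = 3), and since the use of strand in the counting is not given in the sources used here, reads of both genes cannot be told apart where they overlap.

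Fosb, whose truncated form is known to build up in neurons with repeated stimulation, was at 0.625, 0.917 and 0.415 CPM in PRO and 1.53, 1.12 and 1.30 CPM in DIFF. All DIFF libraries were higher, on 9 to 23 counts per library in PRO and 27 to 33 in DIFF. The log2 fold change was 0.90 ± 0.42 (SE), which did not pass after adjustment over all genes with counts (adjusted p = 0.104). With the filter read the other way, which keeps the 14070 genes that reached 1 CPM in 4 or more libraries, it did (0.94, adjusted p = 0.0279).

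The Jun family fell as well. Jun, which can form AP-1 by itself or with any Fos protein, was at 211, 173 and 168 CPM in WT PRO and 20.8, 17.9 and 18.1 CPM in WT DIFF. The DIFF libraries were close to each other and 9.72 times lower in the mean, with a log2 fold change of -3.29 ± 0.15 (SE, adjusted p = 1.34e-07). The antisense gene Junos, which overlaps Jun, was at 0.730 ± 0.278 and 0.780 ± 0.192 CPM (SD, n = 3), and so its level is small beside the change in Jun.

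Junb, the Jun relative that can restrain JUN in cell cycle entry, was at 4.27, 2.79 and 2.63 CPM in PRO and 1.32, 0.705 and 0.830 CPM in DIFF. Library 1 was the highest of both stages, and the groups did not overlap. The log2 fold change in the fit without filter was -1.86 ± 0.35 (SE, adjusted p = 0.000118). Prdx2, which overlaps Junb on the other strand, was at 219 ± 14.5 and 218 ± 14.5 CPM (SD, n = 3), far above Junb itself. As for Fosl1, reads of both genes cannot be told apart where they overlap.

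Ier2, a small nuclear protein induced early by growth factors, was at 17.5, 11.3 and 12.9 CPM in PRO and 6.16, 3.40 and 3.95 CPM in DIFF. The groups did not overlap, and the log2 fold change was -1.64 ± 0.25 (SE, adjusted p = 0.000238).

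**Figure D2:**
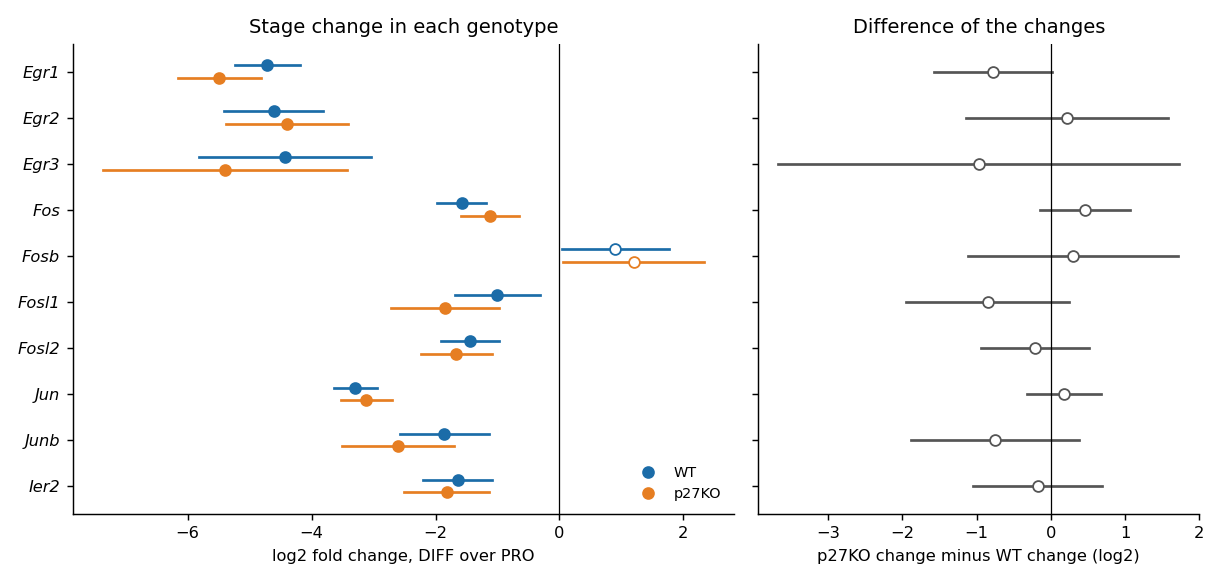
Left, log2 fold change from PRO to DIFF of each gene in WT and in p27KO. Right, the p27KO change minus the WT change. Points are edgeR fits, lines are 95% confidence intervals, and filled points have an adjusted p under 0.05. The Egr genes and Jun lie furthest to the left in both genotypes, Fosb alone lies to the right of 0, and no difference is filled.

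The second comparison asked the same of p27KO cells, with 2 libraries per stage. The 6 tested genes were DOWN again and none UP, where 30.2% of all genes tested were DOWN and 27.5% UP. Without the filter the same 9 genes as in WT were DOWN and none UP, against 14.7% and 13.5% of the genes in that fit. Both DIFF libraries were below both PRO libraries for these 9 genes (23.5% of all genes with counts) and above them for Fosb (31.3%).

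Egr1 was at 145 and 118 CPM in p27KO PRO and at 3.09 and 2.83 CPM in p27KO DIFF. The libraries of a stage were close to each other, the means were 44.3 times apart, and the log2 fold change was -5.49 ± 0.30 (SE, adjusted p = 1.80e-06). Egr2 went from 3.43 and 3.44 CPM to 0.159 and 0.180 CPM (log2 fold change -4.39 ± 0.48, adjusted p = 1.04e-07). Egr3 had 32 and 16 counts in PRO and 0 and 1 count in DIFF, a ratio of 51.2 with a counting interval of 8.75 to 2062, which is wide because it rests on a single DIFF count.

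Jun was at 163 and 209 CPM in PRO and 19 and 24.6 CPM in DIFF, a log2 fold change of -3.12 ± 0.18 (SE, adjusted p = 1.99e-06). Library 2 was the higher of both stages, and the stages were far apart. Junb went from 2.85 and 4.67 CPM to 0.634 and 0.675 CPM (-2.61 ± 0.44, adjusted p = 5.07e-05).

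Fos had the smallest fall in p27KO cells, from 18.0 and 14.7 CPM to 8.64 and 6.61 CPM (log2 fold change -1.12 ± 0.21, adjusted p = 0.00137). Fosl1 went from 4.01 and 3.93 CPM to 0.634 and 1.62 CPM (-1.85 ± 0.39, adjusted p = 0.00260). The DIFF libraries of Fosl1 were more than a factor of 2 apart, on 16 and 36 counts. Its change was -1.33 without DIFF library 1 and -2.65 without DIFF library 2, and passed both times.

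Fosl2 went from 12.7 and 15.0 CPM to 4.12 and 4.77 CPM (log2 fold change -1.66 ± 0.26, adjusted p = 0.000424), and Ier2 from 13.9 and 13.6 CPM to 3.25 and 4.68 CPM (-1.82 ± 0.31, adjusted p = 0.000701). Fosb was again higher at 2 + 1 DIV, with 0.331 and 0.393 CPM in PRO and 0.753 and 1.03 CPM in DIFF. The log2 fold change of Fosb was 1.20 ± 0.55 (SE), with an adjusted p of 0.117 without filter and of 0.0358 with the filter read the other way.

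The stage changes of the genotypes were then compared with each other. No member passed in either direction, in the fit with the filter (50 genes of all tested, 0.389%, passed) or without it (0.274%). None had an unadjusted p under 0.05 either, and DESeq2 called none. Egr1 had the lowest unadjusted p, 0.0548, with a p27KO change that was lower than the WT change by -0.77 on the log2 scale (95% interval -1.57 to 0.02). For Jun the interval of the difference was -0.33 to 0.67, and for Fos it was -0.14 to 1.06. For Fosl2 it was -0.95 to 0.51, and for Ier2 it was -1.05 to 0.69. The intervals of Egr2 (-1.15 to 1.58), Egr3 (-3.67 to 1.73), Fosb (-1.11 to 1.71), Fosl1 (-1.95 to 0.25) and Junb (-1.88 to 0.38) were wider. A sizeable difference in these genes would thus not have been detectable.

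p27KO and WT cells were also compared at each stage. In neurospheres no member passed, where 0.0156% of the genes tested with the filter and 0.0485% without it did. No unadjusted p was under 0.05, and DESeq2 called no member. Egr1 differed by 0.02 on the log2 scale (95% interval -0.46 to 0.49) and Jun by 0.04 (-0.30 to 0.38), both with p27KO PRO libraries among or beside the WT ones. Egr2, Fos and Fosb had both p27KO PRO libraries below all 3 WT ones, as 7.38% of all genes with counts had. The differences of these 3 genes were -0.36 (-1.04 to 0.33), -0.31 (-0.72 to 0.11) and -0.82 (-1.90 to 0.26).

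At 2 + 1 DIV no member passed either, where 2.04% of the genes tested with the filter and 1.15% without it did, and DESeq2 called none. Both p27KO libraries were below all 3 WT ones for Egr1, Fosb and Junb, as for 13% of all genes with counts. Egr1, at 3.09 and 2.83 CPM against 6.31, 5.64 and 3.36 CPM, was the 1 member with an unadjusted p under 0.05 in edgeR (0.0250). Its log2 difference was -0.76 ± 0.28 (SE, 95% interval -1.40 to -0.12), with an adjusted p of 0.254.

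The call depended on which libraries were used and on the fit. Without WT DIFF library 3, the lowest of WT for Egr1, the Egr1 difference was -1.0 (adjusted p = 0.0488), and without WT DIFF library 1, the highest, it was -0.58 and did not pass. With a block for the replicate number, shared by the genotypes, it was -0.91 (adjusted p = 0.0291), and whether a number pairs libraries of both genotypes was not tested. Over all 17 alternatives the adjusted p of Egr1 ranged from 0.0291 to 0.654, and its difference from -1.0 to -0.58. The differences of Jun (0.22, -0.15 to 0.58) and Fos (0.16, -0.28 to 0.59) were on the other side of 0, and that of Fosl1 was -0.74 (-1.56 to 0.09).

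The make-up of each family was described as shares of its summed CPM per kb, which are shares of RNA and not of protein. In WT cells the Jun family total went from 97.0 ± 11.5 CPM per kb in PRO to 26.1 ± 2.53 in DIFF (SD, n = 3). Jun made up 59.6% ± 4.55 of it in PRO and 22.8% ± 0.267 in DIFF, and Jund, the family member known for steady expression, 38.9% ± 4.73 and 75.6% ± 0.133. Thus Jun was the main Jun family transcript in neurospheres and Jund at 2 + 1 DIV, with no overlap between the libraries. Jund itself changed by -0.95 ± 0.14 on the log2 scale (SE, adjusted p = 0.000170), less than Jun. In p27KO cells Jun made up 63.4% ± 1.82 and 26.8% ± 2.03 (SD, n = 2), and Jund 34.8% ± 2.18 and 72.0% ± 1.96. Junb made up 1.07% to 2.01% in every library.

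The Fos family total went from 12.2 ± 0.394 to 4.64 ± 0.548 CPM per kb in WT (SD, n = 3) and from 10.4 ± 0.861 to 4.399 ± 0.190 in p27KO (SD, n = 2). Fos stayed the main member, with 71.6% ± 2.33 of the family in WT PRO and 63.1% ± 6.53 in WT DIFF. Fosb rose as a share without overlap between the stages, from 0.864% ± 0.362 to 4.56% ± 0.668 in WT and from 0.563% ± 0.115 to 3.27% ± 0.865 in p27KO, although it remained the smallest part.

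The Egr family, with Egr4 added to the 3 listed members, went from 32.7 ± 6.74 to 1.28 ± 0.433 CPM per kb in WT and from 31.9 ± 4.39 to 0.763 ± 0.0666 in p27KO. Egr1 made up 85.1% to 93.1% of it in each of the 10 libraries. Egr4 itself was at 3.46 ± 2.84 CPM in WT PRO and at 0.157 ± 0.153 CPM in WT DIFF and was below the filter.

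**Figure D3:**
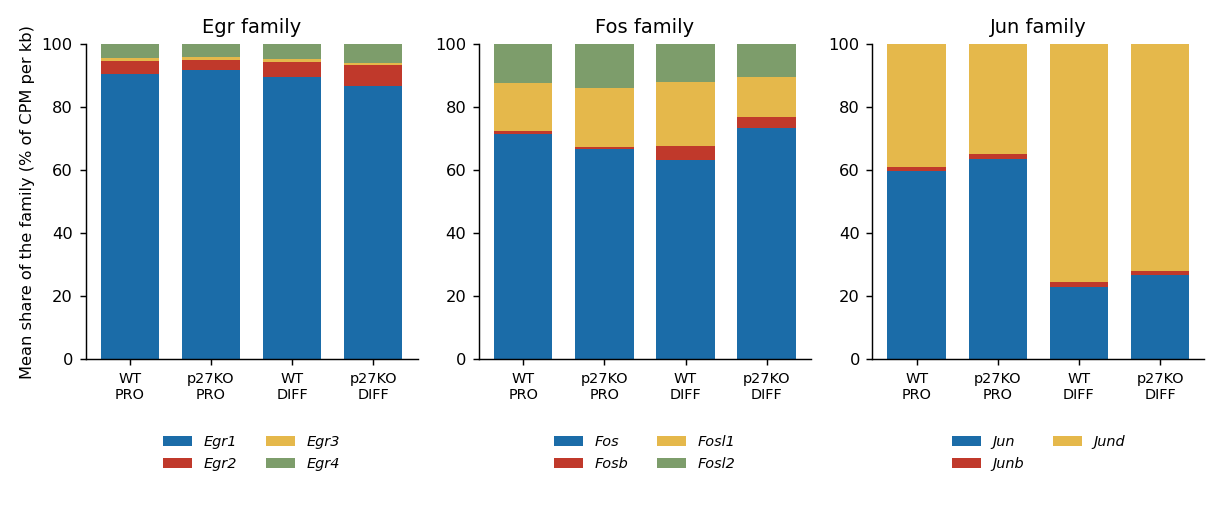
Mean share of each gene in the summed CPM per kb of its family (stacked bars, %) in WT and p27KO PRO and DIFF libraries (n = 3 WT and 2 p27KO per stage). Egr1 makes up most of the Egr family in all groups, Fos most of the Fos family, and the Jun family goes from mostly Jun in PRO to mostly Jund in DIFF.

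The genes that act before and after these factors were taken from lists written for the purpose, and each list is given by its counts beside the median of all genes tested, which was -0.0019 on the log2 scale for the WT stage change, and beside the 33.9% DOWN and 33.5% UP among them. The lists with 5 to 8 tested genes are too small for their counts to be read against these shares. Of 14 upstream regulators, 9 were DOWN and none UP in WT, with a median log2 fold change of -0.35. Srf, the factor that binds the CArG box, was at 32.6 ± 2.97 CPM in WT PRO and 17.0 ± 0.893 CPM in WT DIFF (SD, n = 3), a change of -0.95 ± 0.12 (SE, adjusted p = 6.08e-05). Its co-activators Mrtfa and Mrtfb changed by -0.51 ± 0.18 (adjusted p = 0.0312) and -0.69 ± 0.14 (adjusted p = 0.00185). Among the ternary complex factors, Elk3 changed by -1.28 ± 0.19 (adjusted p = 0.000276), while Elk1 (0.20, adjusted p = 0.0770) and Elk4 (-0.08, adjusted p = 0.497) did not pass. The kinase gene Rps6ka1 had the largest change in this list, -1.76 ± 0.21 (adjusted p = 4.95e-05), and Crem, which encodes a CREB relative, changed by -0.84.

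Of 12 other AP-1 dimer partners, 8 were tested, of which 4 were UP and 2 DOWN, with a median of 0.38. Maf rose by 1.44 ± 0.18 (adjusted p = 6.22e-05), and Jund, described above, had the largest fall of the 8. Atf3, itself an immediate early gene, failed the filter and was at 1.52 ± 0.242 CPM in WT PRO and 0.247 ± 0.00877 CPM in WT DIFF (SD, n = 3). Maff, which also failed the filter, was at 5.86 ± 0.659 and 0.582 ± 0.17 CPM.

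Of 6 genes for EGR co-repressors, for an ERK phosphatase and for mRNA decay, 3 were DOWN and 1 UP, with a median of -0.83. Nab2, a co-repressor whose gene EGR proteins induce, was at 76.7 ± 17.1 CPM in WT PRO and 11.0 ± 4.32 CPM in WT DIFF (SD, n = 3) and changed by -2.82 ± 0.26 (SE, adjusted p = 1.33e-05). Nab1, the related co-repressor, changed by -1.60 ± 0.16 (adjusted p = 1.38e-05), and Dusp1, a nuclear phosphatase of MAP kinases, by -2.17 ± 0.19 (adjusted p = 6.28e-06). Zfp36l1, which encodes a protein that binds AU-rich elements and speeds mRNA decay, rose by 1.06 ± 0.12 (adjusted p = 4.01e-05), whereas its relative Zfp36 had a change of 0.31 that did not pass (adjusted p = 0.293).

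Of 22 other immediate early genes, 17 were tested, of which 9 were DOWN and 6 UP, the latter close to the share over all genes, with a median of -0.53. The largest changes of the 17 were those of Klf10 (-3.77 ± 0.20, adjusted p = 2.70e-07), Klf4 (-3.46 ± 0.31, adjusted p = 7.29e-06) and Ccn1 (2.85 ± 0.29, adjusted p = 1.97e-05). Ccn1, which encodes a matricellular protein and is a target of SRF and YAP, thus rose where the Egr and Jun genes fell, from 4.29 ± 0.938 to 30.9 ± 11.6 CPM (SD, n = 3). Nr4a1, an orphan nuclear receptor gene, changed by -1.79 ± 0.48 (SE, adjusted p = 0.00860). In WT DIFF it ranged from 2.28 to 9.57 CPM, the highest being library 1. Arc, an activity-regulated gene that failed the filter, was at 9.67 ± 1.91 CPM in WT PRO and 0.268 ± 0.253 CPM in WT DIFF. Ccn2, which also failed the filter, went the other way, from 0.920 ± 0.606 to 7.79 ± 3.33 CPM.

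Of 15 genes known as targets of AP-1 or EGR1, 5 were tested, of which 3 were DOWN and 1 UP, with a median of -0.60. Ccnd1, the gene of cyclin D1 and an AP-1 target among others, fell from 2384 ± 199 to 40.7 ± 9.90 CPM (SD, n = 3), by -5.89 ± 0.18 (SE, adjusted p = 3.93e-08). Cd44, the hyaluronan receptor, changed by -1.34 ± 0.22 (adjusted p = 0.000506), and F3, the gene of tissue factor and a textbook EGR1 target, rose by 1.51 ± 0.19 (adjusted p = 6.96e-05). The targets that failed the filter are not in these counts and this median. Among them, Spp1 went from 60.4 ± 15.0 CPM in WT PRO to 0.615 ± 0.621 CPM in WT DIFF (SD, n = 3). Lif went from 1.56 ± 0.478 to 0.198 ± 0.0682 CPM. Of these targets only Mmp13 had a higher mean in WT DIFF, at 0.0138 CPM against 0. Mmp3 and Mmp10, matrix metalloproteases under AP-1 control elsewhere, had 0 counts in all 10 libraries.

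Heat shock genes were listed because handling of cells can induce them together with immediate early genes. Of 8, 7 were tested, of which 4 were DOWN and 2 UP, with a median of -0.55. Hspa1a, an inducible member of the list, was at 1.33 ± 0.227 CPM in WT PRO and 2.67 ± 0.157 CPM in WT DIFF (SD, n = 3) and rose by 1.00 ± 0.32 (SE, adjusted p = 0.0185). Hspa8 changed by -0.99 ± 0.10 (adjusted p = 1.13e-05) and Dnajb1 by -0.82 ± 0.10 (adjusted p = 5.19e-05). The part of cell handling in the levels of the immediate early genes was not tested.

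**Figure D4:**
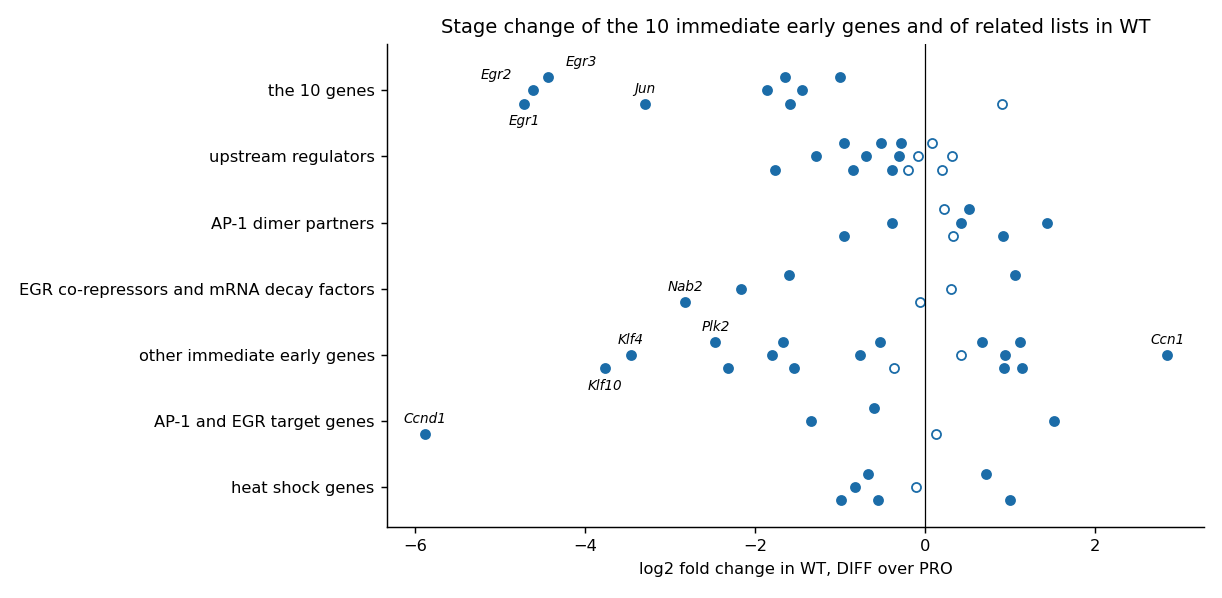
Log2 fold change from PRO to DIFF in WT (horizontal axis) of the 10 genes and of the tested genes of 6 related lists, 1 point per gene, with filled points for an adjusted p under 0.05. The Egr genes and Jun lie left of -3, with Klf10, Klf4 and Ccnd1 as the tested genes of the other lists beyond that, and Ccn1 lies furthest to the right.

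In p27KO cells the numbers of genes DOWN and UP were 8 and 1 of 14 upstream regulators, 2 and 2 of 8 dimer partners, 3 and 1 of 6 co-repressors and decay factors, 9 and 4 of 17 other immediate early genes, 3 and 1 of 5 targets and 3 and 1 of 7 heat shock genes. Of all genes tested, 30.2% were DOWN and 27.5% UP, and the UP count of the other immediate early genes was near the latter share. The lists with 5 to 8 tested genes are again too small to be read against these shares. No gene of any list passed in the difference between the stage changes or in p27KO against WT at either stage. In p27KO cells Srf changed by -0.98 ± 0.14 (SE, adjusted p = 0.000294), Nab2 by -2.67 ± 0.32 (adjusted p = 0.000114) and Ccn1 by 3.37 ± 0.35 (adjusted p = 4.83e-05). Elk1, which did not pass in WT, was the upstream gene that was UP in p27KO (0.29 ± 0.11, adjusted p = 0.0446).

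In both WT stages and in p27KO DIFF, most of the 10 genes were highest in the same library of their group. The share of all genes highest in a given library was not worked out, so that this cannot be called particular to the 10 genes. In WT, library 1 had the highest level of 7 of the 10 genes in PRO and of 8 in DIFF. For 6 of them (Egr1, Egr2, Fosl2, Jun, Junb and Ier2) this was so in both stages. The same number thus marked the highest library of both WT stages for these genes, whereas Fos was highest in library 3 of PRO and Fosl1 in library 2 of PRO and library 3 of DIFF. In p27KO DIFF, library 2 was higher for 8 of the 10 genes, and library 1 for Egr1 and Fos. The p27KO PRO libraries had no such direction, as each was the higher for 5 of the 10 genes.

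Finally, the genes most alike in pattern were named for the 6 tested members among 9746 genes whose mean reached 10 CPM, by Pearson's r of log2(CPM + 1) over the 10 libraries, which share the stage change as their main contrast. For Egr1 these were Camk2b (0.997), Tnfrsf12a (0.996) and Fbn2 (0.996), and for Jun they were Ptbp1 (0.998), Nop2 (0.997) and Eif4g1 (0.997). For Fos they were Rprd1b (0.984), Pdcd11 (0.979) and Stard4 (0.979), for Fosl2 Midn (0.995), Bop1 (0.993) and Farsa (0.992), for Ier2 Lrwd1 (0.994), Adsl (0.993) and Kcnab2 (0.992), and for Fosl1 Zfp180 (0.968), Gtf2ird1 (0.960) and Bcl7c (0.959). With the group means taken out, the highest values named other genes, such as Grm3 for Egr1 (0.984) and Stat3 for Fos (0.931). No gene of one list was on the other for the same member. These are the highest of 9746 values over only 10 libraries, so that they do not by themselves show that the genes vary together.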

How the data were processed

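RNA-seq had been done on 10 libraries. The authors used STAR for alignment to the Ensembl mouse transcriptome and RSEM to estimate reads per gene, and deposited these expected counts as whole numbers, without normalization. The submitters' processing notes also name FastQC, Trimmomatic, cutadapt and the builds GRCm38 and mm10, and versions are not given in the sources used here. Symbols, positions and exon lengths were taken from GENCODE on GRCm38.

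Counts were fitted with edgeR 4.0.16 (limma 3.58.1, R 4.3.3) in 4 groups, with TMM scaling and a robust quasi-likelihood model, after the study's filter (genes with under 1 CPM in at least 4 libraries discarded). Tests were two-sided, with Benjamini-Hochberg adjustment across the genes of each fit and a call at an adjusted p under 0.05. CPM values are scaled to library totals. At 19190068 to 25291674 counts per library, precision is set by the 2 or 3 replicates, and for genes with few counts by counting error too. All 10 genes were fitted in each comparison. Values are given for all 10 in the stage changes and their difference, and for some of them in p27KO against WT at each stage. From the other lists, a fixed set of genes (Srf, Mrtfa, Mrtfb, Elk1, Elk3, Elk4, Nab1, Nab2, Jund, Atf3, Zfp36, Dusp1 and Nr4a1) and the 3 largest changes past the threshold in WT are named. Mmp3, Mmp10, Mmp13, Spp1, Lif, Maff, Arc, Ccn2, Crem, Egr4, Nes, Slc1a3, Cldn5 and Cdh5 were named after their values were seen. Some results for single genes are not reported here. Members and lists were chosen with earlier results of these data known. Alternatives were DESeq2 1.42.0, its size factors, other filters, only the groups compared, the replicate number as a block, each library left out and, chosen after seeing the data, library totals, crossed p27KO numbers and other settings with no filter. Same-numbered WT libraries of both stages deviated together (r = 0.243, 0.276 and 0.380 across genes), whereas same-numbered p27KO libraries gave -0.106. The main fit had no term for the replicate number, so that its stage tests are unpaired. Pairs entered only through the block alternatives. No replicates were copies of each other (chi-square per gene 12.1 to 52.5). On simulated counts for the WT stage change (12859 genes), edgeR recovered 81 of 109 genes changed by a log2 of 1 and 85 of 91 changed by 2, with 4 false calls. Only 200 genes were changed there, far fewer than the 4360 called DOWN in the data. The p27KO, genotype and difference comparisons were not simulated. Tables and plots used Python 3.11.15, pandas 2.3.3 and matplotlib 3.10.9.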

Additional observations from a re-analysis of the deposited data

How the results depend on the processing

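The 20 stage changes of the 10 genes kept their direction under every alternative run. With the filter read the other way, 1 member was UP in each genotype, namely Fosb (0.94 in WT and 1.23 in p27KO). The replicate block gave 1 member DOWN in p27KO against WT at 2 + 1 DIV, namely Egr1 (-0.91), and leaving out each library gave 0 to 1 there, the 1 being Egr1 without WT DIFF replicate 3, with the Egr1 value between -1.0 and -0.58. The block changed no other call of a member. The cause was not tested.

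Genotype comparisons near 0 changed sign. In neurospheres the replicate block gave -0.15 for Egr1, -0.015 for Jun and -0.033 for Ier2, and library totals without TMM gave -0.0090 for Egr1 and -0.014 for Ier2. With each library left out, the neurosphere values ran from -0.12 to 0.16 for Egr1, -0.68 to 0.10 for Egr3 (0.069 without p27KO PRO replicate 2), -0.028 to 0.24 for Fosl1, -0.21 to 0.12 for Fosl2, -0.17 to 0.23 for Jun, -0.15 to 0.56 for Junb and -0.12 to 0.21 for Ier2. At 2 + 1 DIV they ran from -0.37 to 0.27 for Egr2, -0.061 to 0.34 for Fos and -0.44 to 0.12 for Ier2. The difference of the stage changes ran from -0.014 to 0.62 for Egr2, -0.053 to 0.54 for Fosb, -0.40 to 0.0087 for Fosl2, -0.016 to 0.38 for Jun and -0.45 to 0.11 for Ier2. Where a library left out leaves 1 in a group, that library is assumed to vary like the other groups. Crossing the p27KO numbers in the block gave 6 tested members DOWN and 0 UP in each stage change, the same counts as without it. Depth limits Egr3 and Egr2 at 2 + 1 DIV, with 1 to 13 counts per group.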
